A study of Mus musculus with 7 samples.

Results

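The sirtuins are a family of enzymes that use NAD+ to remove acetyl and other acyl groups from lysines, or to transfer ADP-ribose, and the mouse genes Sirt1 to Sirt7 encode them. All 7 genes were found by symbol among the 23413 symbols counted in each library, and all 7 were among the 15881 genes with enough counts to be tested. Their transcripts were counted by RNA-seq in cortex from 7 APP/PS1 mice, 4 fed a control diet (CD, written SD in the sample labels) and 3 fed a ketogenic diet (KD). For no sirtuin was a difference between the diets detectable beyond the spread between mice. The fitted differences ran from a log2 fold change of -0.22 for Sirt6 to 0.17 for Sirt7, and every 95% interval included 0. The level of Sirt2 followed that of oligodendrocyte genes from mouse to mouse, a relation that rests on 3 mice, 1 of them on CD, and whose rank correlation did not pass adjustment over the members (adjusted exact permutation p = 0.155).

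Each sirtuin reaction consumes one NAD+ and releases nicotinamide, which Nampt, the rate-limiting enzyme of NAD+ salvage, returns to the pool, so sirtuin activity depends on the NAD+ supply as well as on the amount of enzyme. SIRT1, SIRT6 and SIRT7 act mainly in the nucleus, SIRT2 mainly in the cytoplasm, and SIRT3, SIRT4 and SIRT5 in mitochondria. In brain, Sirt2 is known as a gene of myelinating oligodendrocytes, and Sirt1 and Sirt3 are widely studied in ageing and energy metabolism. RNA-seq measures their transcripts and not NAD+, protein or enzyme activity.

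All 7 mice carried the APPswe and PSEN1dE9 transgenes, which express mutant human APP and presenilin from prion protein promoters, so the CD mice were not wild-type mice, and no wild-type library was analysed here. Chow was fed from weaning, and the diets began at 6 months of age, in equal daily energy amounts, with the mice housed singly. Cortex was taken after 7 months, at 13 months of age. The study measured a ketone body in blood after a meal and after an overnight fast, and killed the mice after the morning measurement. On both diets the mice were thus probably fasted when cortex was taken. CD supplied 74% of energy as carbohydrate, 10% as protein and 16% as fat, and KD supplied under 0.5% as carbohydrate, 10% as protein and 90% as fat. The sex of these 7 mice is not given in the sources used here, although the study used both sexes. Each library came from one mouse, with RNA from 10 mg of frozen cortex.

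The libraries held 22272883 to 36614954 counts, and the smallest were KD replicates 3 and 1, with 22272883 and 23383393. The excitatory neuron list (6 genes, among them Slc17a7) averaged 6.50 to 7.36 on the log2 scale of CPM (counts per 1000000 counts of the library) in every library, so genes that mark cortical excitatory neurons were present throughout. CD replicate 4 and KD replicate 3 stood apart on the first principal component (39.5 and 46.7, against -25.2 to 2.39 for the other 5) and had the highest mean of 7 olfactory bulb markers, at 2.97 and 1.63 log2 CPM against -0.63 to 0.46. CD replicate 4 was above those 5 libraries for every olfactory bulb marker. KD replicate 3 was above them for Trh (43.4 CPM), Cdhr1 (12.7), Sp8 (3.32) and Lbhd2 (1.37). Its Eomes (0.398 CPM), Th (0.929) and Doc2g (2.08) lay within their range. The olfactory bulb markers thus differed within each diet, and their part in the values below was not tested.

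Levels of different genes can be compared only per length. Per kilobase of annotated exon, Sirt3 had the highest mean over the 7 libraries, 7.98 ± 0.83 CPM per kb (SD, n = 7), followed by Sirt2 at 7.23 ± 1.05 and Sirt1 at 6.82 ± 0.69. Sirt4 (3.81 ± 0.74) and Sirt7 (3.67 ± 0.52) formed a lower step, and Sirt5 (1.91 ± 0.15) and Sirt6 (1.82 ± 0.35) were the lowest. The ranges over libraries overlapped between neighbours within each step. Compared within each library, Sirt3 lay above Sirt2 in 6 of 7 and Sirt2 above Sirt1 in 4 of 7. Sirt4 lay above Sirt7 in 5 of 7, and Sirt5 above Sirt6 in 4 of 7. The order inside each step thus did not hold in every library. Sirt1 lay above Sirt4, and Sirt7 above Sirt5, in 7 of 7 libraries with no overlap. With the length of the longest transcript in place of all exons, Sirt2 came first (17.2 CPM per kb) and Sirt3 next (14.9). Sirt2 was then above Sirt3 in 7 of 7 libraries, although their ranges overlapped. Sirt7 (5.76) moved above Sirt4 (5.09), and Sirt6 was again lowest (2.68). Gaps free of overlap lay below Sirt3, Sirt1 and Sirt5. The upper place of Sirt1, Sirt2 and Sirt3 and the low place of Sirt6 thus held for both lengths, and the step between Sirt7 and Sirt5 did not.

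**Figure D1:**
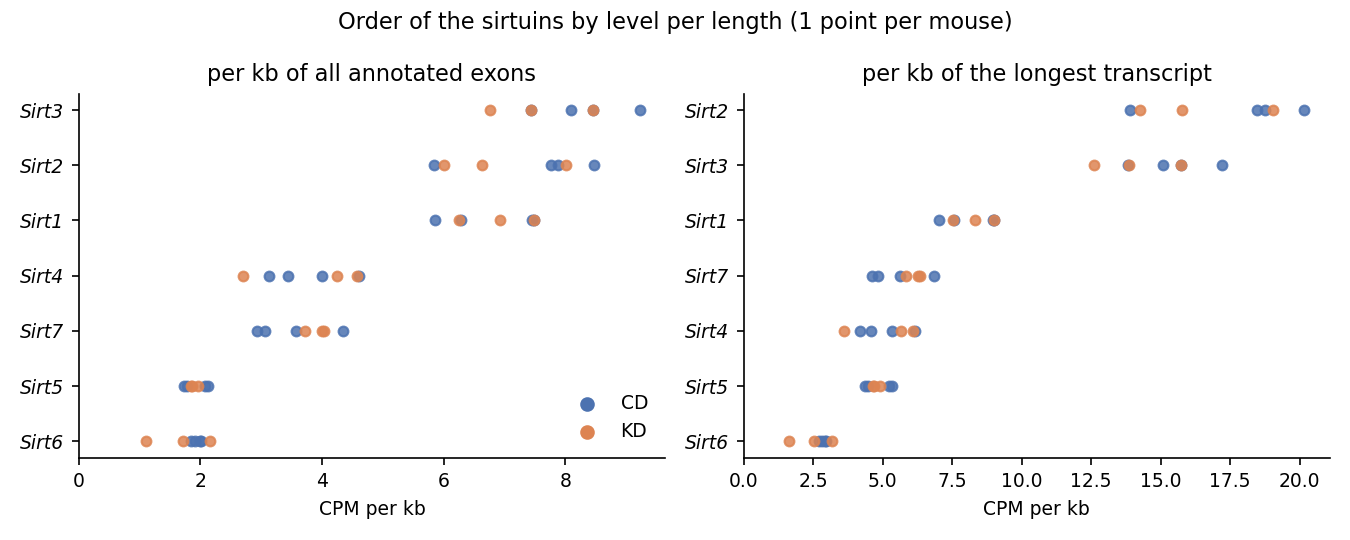
Level of each sirtuin in CPM per kilobase, with 1 point per mouse coloured by diet, for the length of all exons and for the longest transcript. Sirt3, Sirt2 and Sirt1 are the top group with either length, while the order inside that group changes with the length used.

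The values below are CPM scaled by the TMM method, listed for CD replicates 1 to 4 and then KD replicates 1 to 3, and fold changes are KD relative to CD on the log2 scale from edgeR's quasi-likelihood fit over all tested genes. Sirt1 is the nuclear deacetylase that acts on transcription factors and coactivators such as p53, FOXO proteins and PGC-1alpha. It measured 31.2, 39.9, 39.7 and 33.5 CPM in CD and 33.3, 36.9 and 39.9 CPM in KD. KD replicate 3 lay just above the highest CD value (39.87 CPM), and the other KD values lay inside the CD range. The means were 36.1 ± 4.41 (SD, n = 4) in CD and 36.7 ± 3.30 (SD, n = 3) in KD. The log2 fold change was 0.026 (SE 0.12, 95% interval -0.25 to 0.30), with an edgeR adjusted p of 0.993. In bulk cortex a lower value can mean fewer cells that express a gene or less RNA per cell, and these cannot be told apart here.

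Sirt6, a chromatin enzyme with roles in DNA repair and telomere maintenance, was the least abundant member, with 71 to 213 counts per library. Its level was 5.55, 5.30, 5.13 and 5.61 CPM in CD and 3.06, 6.02 and 4.78 CPM in KD. The CD mice were close together (5.40 ± 0.22, SD, n = 4), whereas the KD mice held both the lowest and the highest value of all (4.62 ± 1.48, SD, n = 3). KD replicate 1, with 71 counts, had an exact 95% Poisson interval of 2.39 to 3.87 CPM, which covers counting error only and lay below the next lowest library (4.78 CPM). The log2 fold change of -0.22 (SE 0.23, interval -0.75 to 0.31; edgeR adjusted p 0.979) was the lowest of the family and rested on that library: without KD replicate 1 it was 0.00228.

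Sirt7, a nucleolar member known for its effect on ribosomal RNA transcription, had the highest fold change of the family. It measured 18.4, 15.1, 22.4 and 15.8 CPM in CD and 19.1, 20.7 and 20.6 CPM in KD. The 3 KD mice were alike (20.1 ± 0.89, SD, n = 3) and above 3 of the 4 CD mice, but CD replicate 3 was the highest of all 7. The log2 fold change was 0.17 (SE 0.15, interval -0.17 to 0.51; edgeR adjusted p 0.979). Without CD replicate 3 it was 0.30, with an edgeR raw p of 0.041 and an adjusted p of 0.674. That fit gave more low p values among all genes: 211 of 15729 had a raw p of at most 0.01, against 51 of 15881 in the main fit.

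Sirt2, the cytoplasmic tubulin deacetylase, measured 42.7, 39.7, 29.4 and 39.1 CPM in CD and 40.4, 33.4 and 30.2 CPM in KD. Low values occurred on both diets, in CD replicate 3, KD replicate 3 and, less so, KD replicate 2, and the ranges overlapped. The means were 37.7 ± 5.75 (SD, n = 4) in CD and 34.7 ± 5.19 (SD, n = 3) in KD, with a log2 fold change of -0.12 (SE 0.15, interval -0.47 to 0.22; edgeR adjusted p 0.982).

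Of the mitochondrial members, Sirt3, the main deacetylase of that compartment, measured 55.1, 48.3, 44.4 and 50.5 CPM in CD and 44.5, 50.5 and 40.4 CPM in KD. Its highest value was in a CD mouse and its lowest in a KD mouse, with overlap between, and means of 49.6 ± 4.48 (SD, n = 4) and 45.1 ± 5.07 (SD, n = 3). Its log2 fold change of -0.14 (SE 0.11, interval -0.39 to 0.11) had the smallest raw p of the family, 0.246, and an edgeR adjusted p of 0.979.

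Sirt4, which has ADP-ribosyltransferase and lipoamidase activity, measured 8.23, 7.49, 11.1 and 9.58 CPM in CD and 6.47, 10.9 and 10.2 CPM in KD. Both diets spanned low and high values, and the means of 9.09 ± 1.57 (SD, n = 4) and 9.20 ± 2.39 (SD, n = 3) gave a log2 fold change of 0.019 (SE 0.22, interval -0.48 to 0.52; edgeR adjusted p 0.996). Sirt5, known for removing succinyl and malonyl groups, was the steadiest member, at 12.6, 10.8, 10.6 and 12.9 CPM in CD and 11.4, 11.3 and 11.9 CPM in KD. All 3 KD mice lay inside the CD range, and the log2 fold change was -0.028 (SE 0.12, interval -0.31 to 0.26; edgeR adjusted p 0.993).

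**Figure D2:**
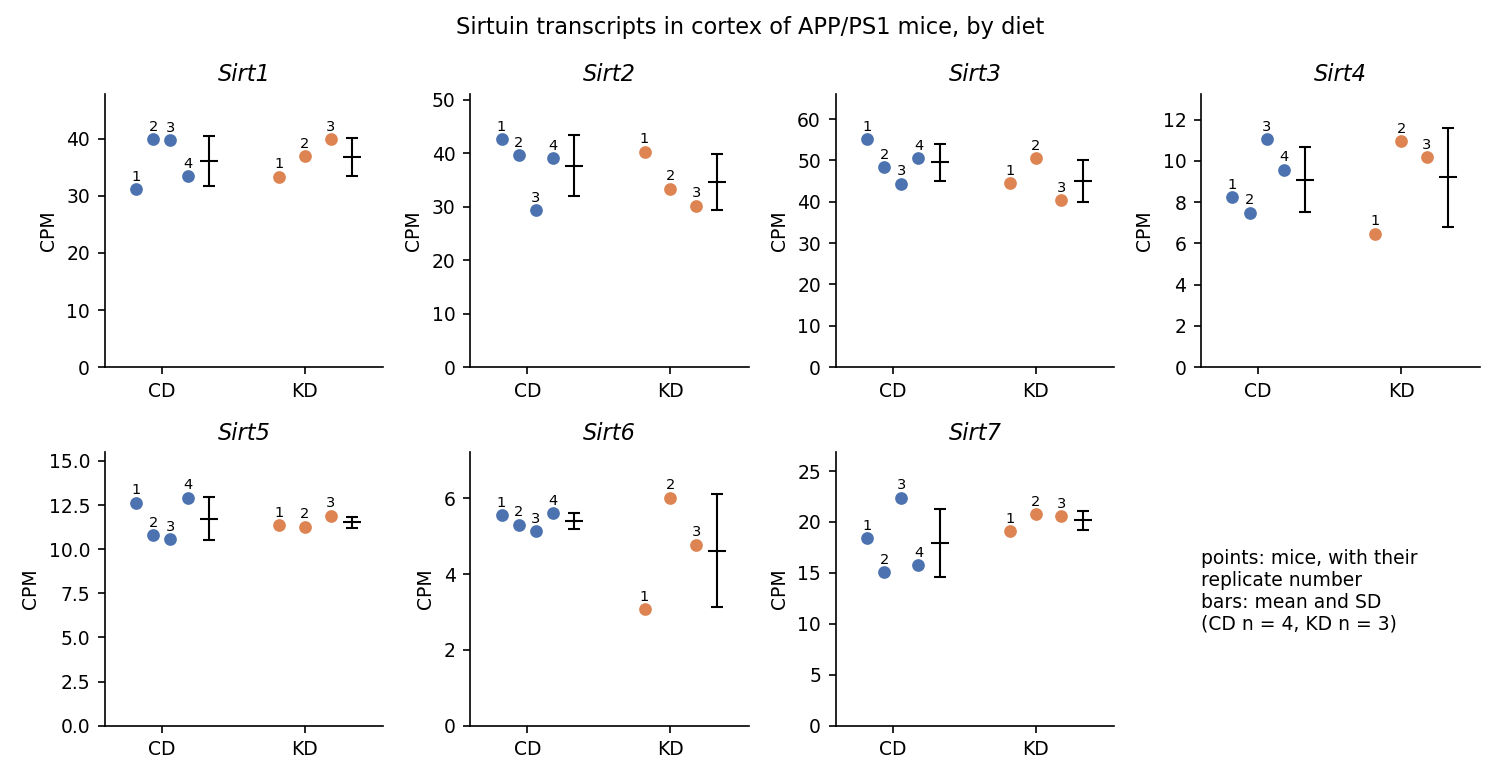
TMM-scaled CPM of the 7 sirtuins, 1 panel per gene, with 1 point per mouse and the mean ± SD of each diet. The diets overlap in every panel, and the low Sirt6 value of 3.06 CPM is KD replicate 1.

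In all, the fold change was positive for 3 members and negative for 4, with a median of -0.028 on the log2 scale against -0.0033 over all tested genes, and no sign turned under the other scalings tried. None of the 7 had a raw p of at most 0.01, which 0.321% of tested genes had, none had a raw p under 0.05, which 3.19% had, and none had an edgeR adjusted p under 0.05, which 0% had. The CD and KD ranges overlapped for all 7, where 4.11% of tested genes had ranges that did not overlap. The intervals set what sizes remain compatible with these mice. On a linear scale they reached from 0.844 to 1.23 for Sirt1 and from 0.765 to 1.08 for Sirt3, but from 0.718 to 1.43 for Sirt4 and from 0.596 to 1.24 for Sirt6. A change of 1 on the log2 scale lay outside every interval.

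**Figure D3:**
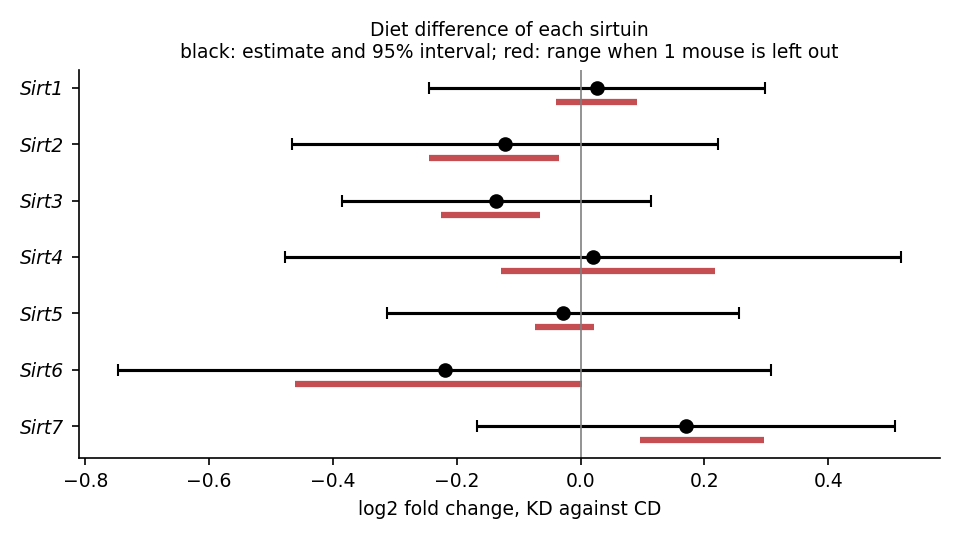
Log2 fold change of each sirtuin, KD relative to CD, with its 95% interval from edgeR's quasi-likelihood fit. Every interval crosses 0, and those of Sirt4 and Sirt6 are the widest.

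The members varied from mouse to mouse to different degrees. Over the 7 libraries the median coefficient of variation was 11.3% for the 11562 genes with a mean of at least 5 CPM. The coefficient was 7.65% for Sirt5, below that median, and 10.1% for Sirt1 and 10.4% for Sirt3, near it. It was 14.2% for Sirt7, 14.6% for Sirt2 and 19.4% for Sirt4, and Sirt6 was close to Sirt4. The members did not vary as one block: of the 21 pairs, 10 were positively and 11 negatively correlated over the 7 libraries, from r = -0.779 for Sirt2 with Sirt4 to 0.669 for Sirt4 with Sirt6. Only Sirt2 with Sirt4 had an unadjusted exact permutation p under 0.05 (Pearson p = 0.048; Spearman rho = -0.857, p = 0.0238), and without the 2 libraries farthest from the median its r was -0.711. After Benjamini-Hochberg adjustment over the 21 pairs, the smallest exact permutation p was 0.342 for Pearson and 0.37 for Spearman.

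Sirt2 moved with the oligodendrocyte genes. The mean of 18 oligodendrocyte markers was 6.56, 6.49, 4.82 and 6.58 log2 CPM in CD and 6.59, 5.72 and 4.74 log2 CPM in KD. CD replicate 3 and KD replicate 3 were thus low on either diet, KD replicate 2 was between, and these are the libraries with the lowest Sirt2. Mbp, myelin basic protein, measured 1217, 863, 254.8 and 774.8 CPM in CD and 1043, 509.3 and 261.7 CPM in KD. The markers of myelin were therefore present in every library, at levels that differed several-fold between mice on one diet.

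Across the 7 libraries, Sirt2 and the marker mean had a Pearson r of 0.973 (exact permutation p = 0.00615; adjusted over the 7 members 0.043) and a Spearman rho of 0.786 (exact permutation p = 0.048; adjusted 0.155). The r was 0.971 with the diet means removed and 0.932 without CD replicate 3 and KD replicate 3. The other 4 libraries lay within a narrow range of marker levels, so the relation rests on the 3 lower libraries, and without CD replicate 3 and KD replicate 3 on KD replicate 2 alone. As a description, 40 of 9928 genes outside the list with a mean of at least 10 CPM (0.403%) had an r at least as high. Sirt2 spanned 0.54 on the log2 scale where the markers spanned 1.85, a slope of 0.25.

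For no other member was the adjusted p of the relation under 0.05. Sirt1, Sirt4 and Sirt7 were higher where the markers were lower, with r of -0.712, -0.729 and -0.759 and an adjusted exact permutation p of 0.142 each. Sirt3 had an r of 0.674 (adjusted exact permutation p = 0.147), which was -0.124 without the 2 lowest libraries, and Sirt5 and Sirt6 had r of 0.387 and -0.144. The relations of the 6 members other than Sirt2 were added after their values were seen, and whether their r differed from that of Sirt2 was not tested.

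**Figure D4:**
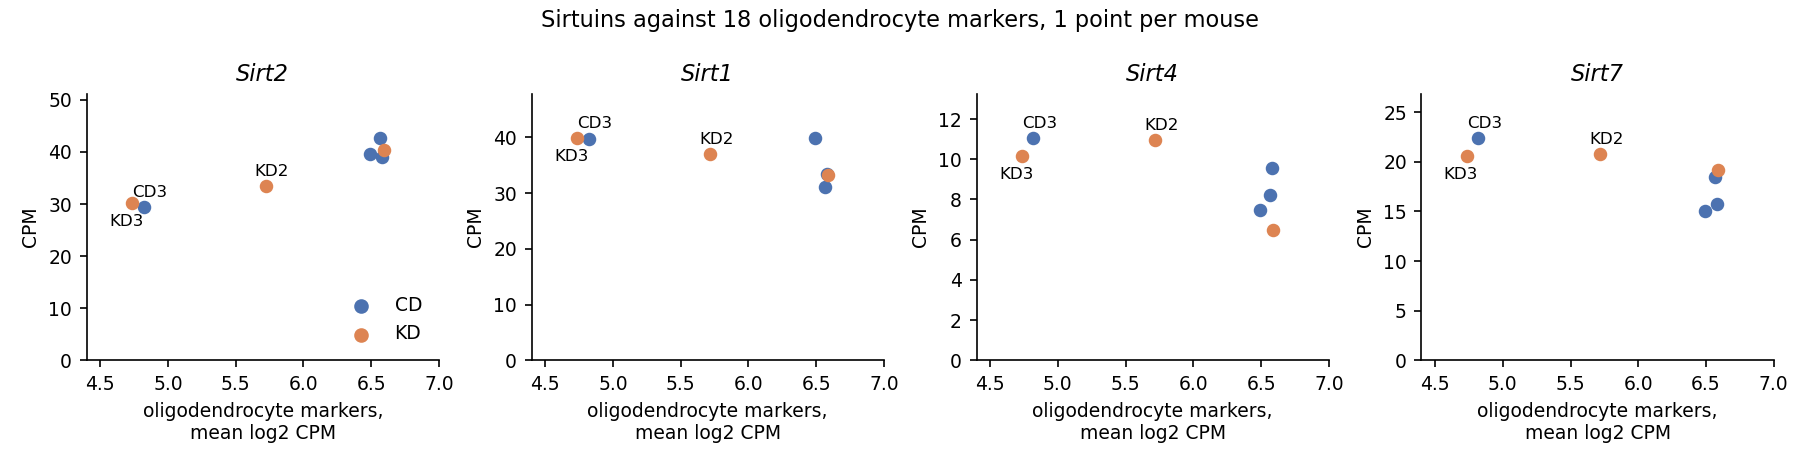
CPM of Sirt2, Sirt1, Sirt4 and Sirt7 against the mean log2 CPM of 18 oligodendrocyte markers, with 1 point per mouse coloured by diet and the 3 lower libraries named. Sirt2 is lower in CD3, KD2 and KD3, while Sirt1, Sirt4 and Sirt7 are among their higher values there.

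All 18 oligodendrocyte markers had a negative fold change in KD, with a median of -0.41 on the log2 scale, and 0 of them had a raw p under 0.05. Mbp and Mog, genes of myelin proteins, had log2 fold changes of -0.36 and -0.38, with edgeR adjusted p of 0.983 each. The median of the list was -0.052 without KD replicate 3 and -0.96 without KD replicate 1. With the marker mean as a covariate, the log2 fold change of Sirt2 was -0.012 in place of -0.12. Sirt2 minus the marker mean was 0.31 higher in KD on the log2 scale. Its exact permutation p was 0.514 over the 35 splits, where 0.0286 is the smallest p they can give. Sirt2 followed the markers with a slope of only 0.25, so this difference also carries the lower marker mean of KD (5.68 log2 CPM, against 6.11 in CD). It cannot show whether Sirt2 differed at a given marker level.

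The genes whose levels were most like those of each member were taken as the highest r among about 9943 candidates, so a high value is what such a search returns, and they are a description over 7 libraries. For Sirt2 they were Pllp, which encodes the myelin protein plasmolipin (r = 0.998), and Gltp, a glycolipid transfer protein (0.996), and 12 of the 18 oligodendrocyte markers were in its closest 50. None of those markers was in the closest 50 of any other member. For the nuclear members the closest were Vps26b (0.99) and Ttpal (0.975) for Sirt1, B3galt6 (0.974) and Taf8 (0.973) for Sirt6, and Wdr48 (0.969) and Ubr3 (0.964) for Sirt7. For the mitochondrial members they were Agpat3 (0.969) and H6pd (0.961) for Sirt3, Pan2 (0.988) and Ammecr1l (0.98) for Sirt4, and Etfb (0.994), a subunit of the mitochondrial electron transfer flavoprotein, and Abtb2 (0.991) for Sirt5.

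No gene for the making of NAD+ passed either threshold. Of 24 genes of NAD synthesis and salvage 18 could be tested, of which 11 had a positive and 7 a negative fold change in KD, with a median of 0.019 and 0 at a raw p under 0.05. Nampt measured 105.9 ± 8.66 CPM (SD, n = 4) in CD and 108 ± 4.71 CPM (SD, n = 3) in KD, a log2 fold change of 0.029 with an interval of -0.17 to 0.23. Nmnat2, the neuronal enzyme of the last step of NAD+ synthesis, had a log2 fold change of 0.0096 between means of 382.1 CPM in CD and 384.6 CPM in KD. The smallest raw p values belonged to Afmid, an enzyme of tryptophan breakdown, Aox1, an oxidase of nicotinamide products, and Pnp, which cleaves nicotinamide riboside. Their log2 fold changes were 0.42, -0.32 and -0.18, with an edgeR adjusted p of 0.979 for all 3. Each value leaned on 1 library: Afmid was 0.11 without KD replicate 3, Aox1 -0.10 without CD replicate 4 and Pnp -0.080 without CD replicate 1. Nmrk2, Qprt, Kmo, Kynu, Acmsd and Nnmt, with at most 30 counts in any library, were not tested.

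Of 8 other genes whose products consume NAD+, 7 were tested, 3 with a positive and 4 with a negative fold change, with a median of -0.00071 and 0 at a raw p under 0.05. Tnks2, a tankyrase, was higher in every KD library (345.9 to 366.6 CPM) than in any CD library (285.9 to 339.4 CPM), with a log2 fold change of 0.16 and a raw p of 0.0921. Cd38, an NAD+ glycohydrolase, and Parp3, a DNA repair enzyme, had log2 fold changes of -0.42 and -0.26, with an edgeR adjusted p of 0.979 each. Cd38 was -0.19 without CD replicate 4, its highest library (7.97 CPM), and Parp3 was -0.13 without KD replicate 3 and -0.057 with CD replicate 3 left out as well. Parp1, the main poly(ADP-ribose) polymerase, had -0.00071. Bst1 was not tested.

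Among the 26 nuclear partners and substrates, 8 had a positive and 18 a negative fold change in KD, with a median of -0.10, where 49.0% of all tested genes had a positive one. A raw p under 0.05 was found for 1 higher and 2 lower genes, 11.5% of the list against 3.19% of all tested genes. Rarb, the retinoic acid receptor beta, measured 10.8, 12.1, 12.8 and 11.2 CPM in CD and 16.8, 13.9 and 17.7 CPM in KD. Its groups did not overlap, and its log2 fold change was 0.46 (SE 0.13), with a raw p of 0.00598 and an edgeR adjusted p of 0.979. Its raw p of at most 0.01 was lost in 5 of the 7 fits that left out 1 mouse (0.0124 to 0.0256), all but those without CD replicate 3 or KD replicate 2, and with oligodendrocyte markers as a covariate (0.0107) or a replicate block (0.0167). Ppargc1a, which encodes the SIRT1 substrate PGC-1alpha, had 69.1 ± 12.8 CPM (SD, n = 4) in CD and 51.6 ± 8.80 CPM (SD, n = 3) in KD, and Nr1h2, the liver X receptor beta, had 12.6 ± 1.09 and 9.69 ± 1.96 CPM. Their log2 fold changes were -0.42 and -0.38, their ranges overlapped, and edgeR gave raw p of 0.0342 and 0.0474 and an adjusted p of 0.979 for both. Ppargc1a exceeded 0.05 in the fits without CD replicates 1, 2 or 4 or KD replicates 2 or 3, with a raw p of up to 0.116. Nr1h2 did so without CD replicates 1, 2 or 4 or KD replicates 1 or 3, with a raw p of up to 0.148 and a log2 fold change of -0.25 without KD replicate 3, and also under the likelihood-ratio, exact and limma-voom tests and with the oligodendrocyte covariate (raw p of 0.0521 to 0.0791). Foxo1, Trp53 and Adam10, other genes of SIRT1 biology, had log2 fold changes of 0.065, -0.074 and 0.062. Foxo3, Foxo4 and Stk11 of the same list went further, with -0.22, -0.26 and -0.21, and none of these 3 had an edgeR raw p under 0.05. All of these genes were named after their values were seen, and the 8 positive and 18 negative signs describe the whole list.

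Of 32 genes for substrates of the mitochondrial sirtuins, 31 were tested (Otc was not), 6 with a positive (19.4%, against 49.0% of all tested genes) and 25 with a negative fold change, with a median of -0.076 and 0 at a raw p under 0.05. The smallest raw p values belonged to Got2, a mitochondrial aminotransferase, Mdh2, malate dehydrogenase, and Sod2, the manganese superoxide dismutase. Their log2 fold changes were -0.21, -0.16 and -0.19, with an edgeR adjusted p of 0.979 each. Mdh2 was lower in every KD library (127.5 to 134.5 CPM) than in any CD library (138.1 to 161.5 CPM).

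Over these 4 lists, 82 of 90 genes were tested and 3.66% had a raw p under 0.05, against 3.19% of all tested genes, and the 3 genes behind that share were all in the nuclear list. At a raw p of at most 0.01 there was 1 gene, Rarb, or 1.22% against 0.321%. Ranges of the diets did not overlap for 4 of the 82 (4.88%, against 4.11%): Rarb, Tnks2, Mdh2 and Ido2, an enzyme of tryptophan breakdown at 0.946 ± 0.12 CPM (SD, n = 4) in CD and 1.15 ± 0.12 CPM (SD, n = 3) in KD. By edgeR, 0 of the 82 had an edgeR adjusted p under 0.05.

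**Figure D5:**
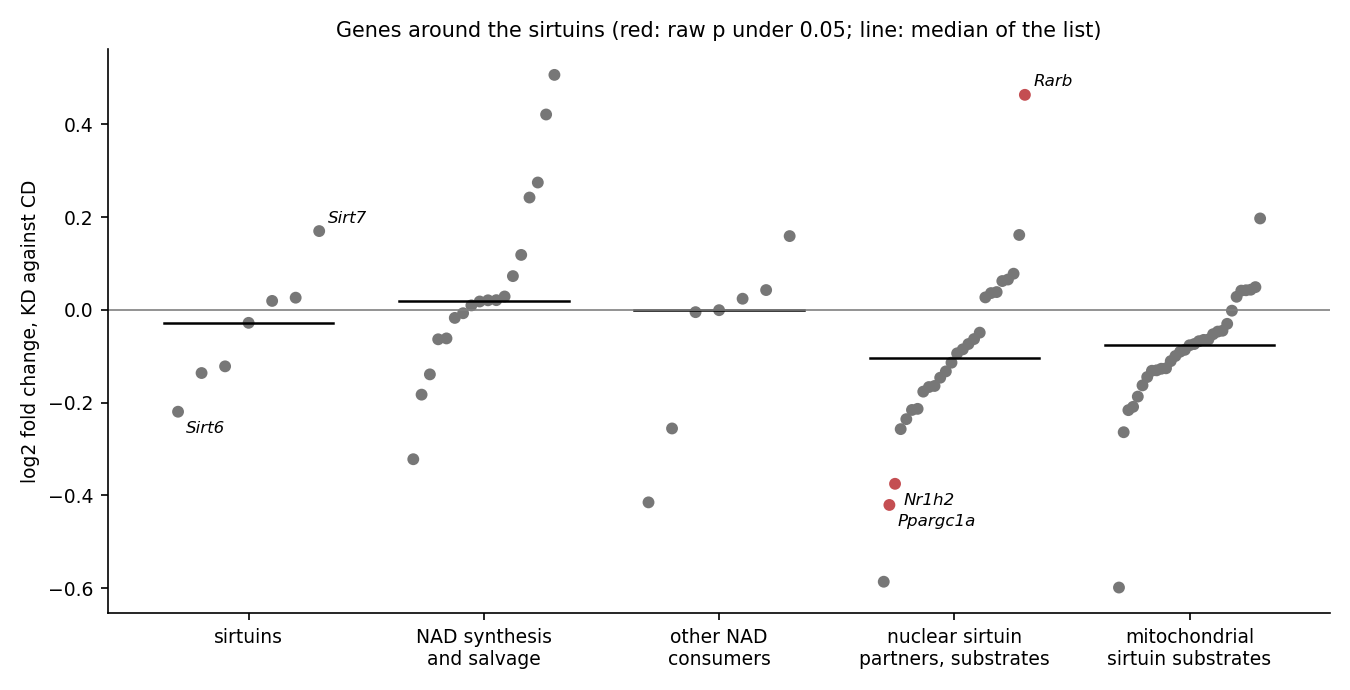
Log2 fold changes, KD relative to CD, of the sirtuins and of the 4 lists of NAD and substrate genes, with 1 point per tested gene and a bar at the median. The medians of the lists lie between -0.10 and 0.019, against -0.0033 for all tested genes.

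Markers of other cells were measured beside the sirtuins, as mean log2 CPM in each library. Excitatory neuron markers (6 genes) ranged from 6.92 to 7.36 in CD and from 6.50 to 7.34 in KD, and inhibitory neuron markers (5 genes) from 5.45 to 5.79 and from 5.32 to 5.75. Astrocyte markers (8 genes) ranged from 8.15 to 8.47 and from 8.13 to 8.47, microglia markers (8 genes) from 5.12 to 5.88 and from 5.59 to 6.01, and endothelial markers (7 genes) from 4.30 to 4.96 and from 4.15 to 4.52. Choroid plexus markers (5 genes) ranged from 0.36 to 3.81 in CD and from 1.43 to 2.13 in KD. The ranges of all these list means overlapped between the diets, with median log2 fold changes of -0.16, -0.046, 0.024, 0.21, -0.18 and -0.62 in that order, and -0.84 for the olfactory bulb markers. Single mice carried several of these medians: without CD replicate 4 they were 0.13 for olfactory bulb, 0.074 for endothelial and 0.083 for microglia markers, and without CD replicate 1 the choroid plexus median was -0.030. Some single markers, named after their values were seen, went further. Of the 8 microglia markers 2 (25%, against 3.19% of all tested genes) were higher at a raw p under 0.05: Itgam, a surface integrin, at 24.1 to 35.9 CPM in CD and 37.6 to 51.3 CPM in KD, and Csf1r, a growth factor receptor, at 80.3 to 107.7 and 104 to 148.3 CPM. Gad1, an enzyme of GABA synthesis, was at 471.7 to 656.2 CPM in CD and 403.1 to 447.8 CPM in KD (log2 fold change -0.37). Th, among the olfactory bulb markers, was at 1.40 to 10.2 and 0.599 to 1.21 CPM, and both had an edgeR raw p under 0.05. The lists of these genes were mixed in sign. In KD 2 inhibitory neuron markers were higher, among them Gad2 (log2 fold change 0.070), and 3 lower. Of the microglia markers 6 were higher and 2 lower, and of the olfactory bulb markers 2 were higher and 5 lower. The ranges did not overlap for 1 of 8 microglia markers (Itgam), 1 of 5 inhibitory neuron markers (Gad1) and 1 of 7 olfactory bulb markers (Th). The same held for 2 of 7 endothelial markers (Pecam1 and Ly6c1) and for 0 of the excitatory neuron, astrocyte and choroid plexus markers. Among all tested genes the share was 4.11%. Itgam, Csf1r, Gad1, Th, Pecam1 and Ly6c1 all had an edgeR adjusted p of 0.979. Their part in the sirtuin values was not tested.

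The sirtuin genes lie apart in the mm10 genome, but 4 of them share exon bases with a neighbour, given here by GENCODE M21 annotation. Sirt1 lies at chr10:63319005-63381704 and Sirt6 at chr10:81621785-81627797, both on the minus strand, Sirt4 at chr5:115478010-115484725 on the minus strand and Sirt5 at chr13:43365496-43395203 on the plus strand. Sirt2, at chr7:28766735-28788661 on the plus strand, shares 42 exon bases with Nfkbib. Sirt3, at chr7:140863666-140882309 on the minus strand, shares 418 with Ric8a, which the count files list as Ric8, and 342 with Psmd13, both on the opposite strand. Sirt7, at chr11:120618372-120625240 on the minus strand, shares 124 with Mafg and 54 with the miRNA gene Mir6936 on its own strand, and Sirt1 shares 65 with an antisense gene, Gm16145. Mir6936 and Gm16145 were not analysed here.

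The start of Sirt3 shows what such an overlap means for counting. Of 2 RefSeq promoter windows of Sirt3, the one at its outer start (GRCm38.p6, chr7:140882260-140882559, minus strand) is 300 bases long and crosses that start. It is shown because it holds the outer end of the overlap: the last 50 bases, in capitals, are exonic both in Sirt3 and, on the other strand, in the proteasome gene Psmd13. The other window, chr7:140881820-140882119, shares 152 bases with Psmd13.
Sirt3 promoter window: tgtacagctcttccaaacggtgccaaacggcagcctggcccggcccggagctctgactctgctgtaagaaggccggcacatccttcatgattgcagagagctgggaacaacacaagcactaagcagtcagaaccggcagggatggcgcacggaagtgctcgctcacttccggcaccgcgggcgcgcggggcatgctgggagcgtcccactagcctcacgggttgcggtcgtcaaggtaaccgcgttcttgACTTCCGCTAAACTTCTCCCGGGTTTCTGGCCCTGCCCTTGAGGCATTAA
A read from the capital bases can be assigned only by its strand, and the strand setting of the counting is not given in the sources used here, although the kit kept the strand. Psmd13 measured 76.9 to 81.5 CPM in KD and 72.1 to 83.4 CPM in CD (log2 fold change 0.032), and Ric8 had -0.066. Nfkbib, with 3.47 to 3.63 CPM in KD below 3.94 to 4.86 CPM in CD, had a log2 fold change of -0.26, and Mafg had -0.083. None of these neighbours had an edgeR adjusted p under 0.979. The 300-base RefSeq promoter windows of the 7 genes held from 15 to 47 CG dinucleotides, where the median of 32851 windows was 7. That of Sirt1 was the richest, with 47 and a GC content of 79.0%.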

How the data were processed

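Cortex RNA was sequenced from 7 APP/PS1 mice (stranded total RNA libraries from 300 ng RNA). The authors used STAR for alignment to mm10, took gene totals from its built-in HTSeq counting, and deposited raw counts for each gene symbol. Tool versions, gene annotation and strand setting of that counting are not given in the sources used here. Diet and replicate number came from the sample titles.

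The counts were fitted with edgeR 4.0.16 in R 4.3.3, with filterByExpr, TMM scaling (factors 0.978 to 1.04), glmQLFit with robust=TRUE and glmQLFTest, without covariates, and Benjamini-Hochberg adjustment over the 15881 tested genes. The study names edgeR, TMM and a raw threshold of 0.01. CPM are TMM-scaled, and log2 CPM used a prior count of 2. Standard errors and 95% intervals came from the fold change and its F statistic. Correlations (5040 orders) and the Sirt2 difference (35 splits) used two-sided exact permutation tests in scipy 1.17.1, so p cannot fall below 0.000198 and 0.0286. P-values measure the spread between these mice only.

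The members and lists were chosen with earlier results of these data known. The 4 lists cover NAD synthesis, other NAD consumers, nuclear partners and mitochondrial substrates, and 8 lists mark cell types or neighbouring tissue. Named genes were the 7 sirtuins, Nampt, genes of the 4 lists with a raw p under 0.05 or else the 3 smallest of a list, overlapping genes, the 2 genes most like each member, and Mbp and Mog. Nmnat2, Parp1, Foxo1, Foxo3, Foxo4, Stk11, Trp53, Adam10, Ido2 and single markers of other cell types were added after their values were seen. Lists are described by counts and medians, without a set test. Of the 154 list genes, 4 were found under older symbols. Lengths came from GENCODE M21.

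For KD against CD the fit was tested on simulated data drawn from the means and totals of these libraries. Where 196 genes among 15730 were given a log2 change of 1, 79.1% had a raw p of at most 0.01 and 62.2% an adjusted p under 0.05. For a change of 0.5 (197 genes among 15733) these were 37.1% and 0%, and for 0.25 (199 among 15745) 9.55% and 0%. Of the unchanged genes, 1.02%, 1.09% and 0.888% had a raw p of at most 0.01 in these 3 runs, against 0.321% of all tested genes in the real data. Each gene was drawn independently, without variation shared between genes, so these shares may not hold for the real libraries. No pair of libraries agreed within sampling noise (a chi-square divided by the number of genes gave 16.1 to 84.4). Alternatives were other scalings (library size alone, upper-quartile or RLE), other filters (1 count; 1 CPM in 3 libraries) and other tests (DESeq2 1.42.0, limma-voom of limma 3.58.1, and the exact and likelihood-ratio tests of edgeR). Further ones were Xist or oligodendrocyte markers as a covariate, a replicate block fitted without CD replicate 4, and leaving libraries out. The hippocampal protein and slice measurements were not analysed here, and some genes of the lists are counted in them but not reported by name.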

Additional observations from a re-analysis of the deposited data

Results flagged for a closer look

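Among the 4 CD mice, 6 of 39 values examined had one mouse far from the rest, with a gap to its nearest neighbour above Dixon's critical value as a share of the group's whole range. Chance flags about 1 in 20 such groups, here about 1.95. Of the 6, 3 concern CD replicate 3 and oligodendrocyte genes: the oligodendrocyte marker mean was 4.82 log2 CPM there, with the nearest CD mouse at 6.49, Mog was 4.39 against 6.15, and Sirt2 minus the marker mean was 0.0616 against -1.15. These 3 share genes and are not independent of each other. The mean of the nuclear sirtuin partners was 4.33 log2 CPM in CD replicate 4, with the next at 4.19. CD replicate 2 was low for Ric8 (5.66 against 5.84) and for Mafg (4.06 against 4.24), neighbours of Sirt3 and Sirt7. None of the 7 sirtuins themselves was set apart by this measure in CD, and the 3 KD mice were too few to be examined.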

How the results depend on the processing

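Across 13 alternatives and with each of the 7 libraries left out, 0 of the 7 sirtuins passed the raw threshold of 0.01 or an adjusted p of 0.05. Fold changes below are on the log2 scale. With oligodendrocyte markers as a covariate, Sirt1 turned to -0.029, Sirt4 to -0.10, Mbp to 0.068 and Mog to 0.044. The replicate block used replicates 1 to 3 only, so CD replicate 4 was left out of it. In that fit Sirt1 turned to -0.00363, Sirt5 to 0.026 and Psmd13 to -0.0041. Leaving out CD replicate 4 without a block gave the same turns, to -0.0083, 0.021 and -0.0042. The labels do not say that the replicate numbers pair the mice, and the main fit did not take them as pairs. Same-numbered mice deviated together with correlations of 0.251, 0.195 and 0.098. Differently numbered mice were not compared, so these values cannot show whether the numbers pair the mice. The block fit had 182 genes at an edgeR raw p of at most 0.01. On the same libraries without a block there were 33, and in the main fit of all 7 libraries 51. Leaving out CD replicate 3 and KD replicate 3 together, added after seeing the data, turned Nampt to -0.021 and moved the medians of NAD synthesis to -0.045, excitatory neurons to 0.14 and inhibitory neurons to -0.23. Levels per kb of the longest transcript were 14.9 for Sirt3, 17.2 for Sirt2, 8.21 for Sirt1, 5.09 for Sirt4, 5.76 for Sirt7, 4.80 for Sirt5 and 2.68 for Sirt6.

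Leaving out each library in turn gave -0.039 to 0.091 for Sirt1, -0.13 to 0.22 for Sirt4, -0.074 to 0.021 for Sirt5 and -0.46 to 0.00228 for Sirt6, and signs turned. It gave -0.25 to -0.035 for Sirt2, -0.23 to -0.066 for Sirt3 and 0.10 to 0.30 for Sirt7, without a turn. Nampt ranged from -0.013 to 0.066 and Psmd13 from -0.0042 to 0.066. The medians ranged from -0.050 to 0.065 (NAD synthesis), -0.27 to 0.061 (excitatory neurons), -0.25 to 0.10 (inhibitory neurons), 0.083 to 0.33 (microglia), -0.32 to 0.074 (endothelial), -1.98 to 0.13 (olfactory bulb) and -1.19 to -0.030 (choroid plexus). The diet difference of Sirt2 minus the oligodendrocyte marker mean ranged from -0.067 (without KD replicate 3) to 0.65 (without KD replicate 1). The r of Sirt2 with that mean ranged from 0.960 to 0.987. The cause of these turns was not tested.

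The count of all genes at a raw p of at most 0.01 was 120 with DESeq2, 91 with the exact test, 103 with the likelihood-ratio test, 208 with Xist as a covariate, 156 without both low-oligodendrocyte libraries, 211, 19, 31, 33, 96 and 33 without CD replicates 3, 1, 2 and 4 and KD replicates 2 and 3. The likelihood-ratio test, the exact test and the Xist covariate each called 1 gene at an adjusted p under 0.05, and it was no sirtuin. With 71 to 213 counts, Sirt6 had the least precise values.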
